A study of Mus musculus with 6 samples.

Results

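BCL2 family survival genes were examined in type 1 conventional dendritic cells (cDC1s), which are known for cross-presenting antigen to CD8 T cells. The 10 genes, out of 32285 features in the count table, were taken by name from the GENCODE M21 annotation, with no threshold on a measured value, although earlier results of these data were known when the list was made. They comprise the anti-apoptotic genes Bcl2, Bcl2l1, Mcl1, Bcl2a1b and Bcl2a1d, the effectors Bax and Bak1, and the BH3-only genes Bcl2l11, Bid and Bbc3, and all 10 passed the filter on low counts. The cells came from mLN of C57BL/6 mice that had received 50 µg of HDM, the house dust mite allergen, through the nose, and were isolated by FACS 24 h later. Wild-type mice (WT) gave 3 libraries, and mice labelled Vps33BdeltaDC, a name that denotes deletion of Vps33b in dendritic cells (KO), gave the other 3. No mouse went without HDM, and the Cre driver, the ages and any pooling of animals are not given in the labels. Nor do the labels tie each library to its own animal, so p-values measure only the spread between these samples, and that spread may be technical.

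BCL2 family proteins set the threshold for mitochondrial apoptosis. Anti-apoptotic members hold the effectors BAX and BAK in check, BH3-only members relieve that restraint or activate the effectors directly, and active effectors permeabilise the outer mitochondrial membrane so that cytochrome c is released and caspases are activated. In dendritic cells the family is known to govern lifespan: engagement of CD40 raises BCL-XL, the product of Bcl2l1, and loss of BIM, the product of Bcl2l11, prolongs survival. BCL2A1 (also called A1) is an NF-kB target in leukocytes, and in the mouse it is encoded by several nearly identical genes.

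The libraries held between 11755944 and 18450678 counts. Vps33b, the deleted gene, was at 16.2, 19.1 and 13.8 CPM (counts relative to the TMM-scaled library size) in the WT libraries and at 4.997, 7.01 and 8.29 CPM in the KO libraries. Its groups did not overlap, with a log2 fold change of -1.28 ± 0.27 (SE), an unadjusted edgeR p of 0.000567 and an adjusted p of 0.834. Of the cDC1 markers, Irf8 lay between 1244 and 1741 CPM and Batf3 between 124 and 176 CPM, Clec9a lay between 50.8 and 85.5 CPM and Xcr1 between 5.72 and 44.6 CPM, while Naaladl2 had no counts. The 11 cDC1 markers summed to between 2831 and 2999 CPM in WT and between 2618 and 3148 CPM in KO. Irf8 and Flt3 were the largest terms, with WT means of 1414 and 808 CPM. Of the 10 tested markers 8 lay below 0, with a median log2 fold change of -0.29. Xcr1, Clec9a and Wdfy4, 3 of 10, were lower in KO at an unadjusted edgeR p under 0.05 (adjusted p 0.834 each), beside 3.06% of all genes. Groups did not overlap for 2 of these, beside 5.19% of all genes lower without overlap. They were Xcr1 (13.1 to 44.6 CPM in WT, 5.72 to 11.4 in KO) and Wdfy4 (66.9 to 111 in WT, 33.3 to 58.3 in KO). The part of the cDC1 markers in the members' values was not tested. The 8 markers of mature migratory dendritic cells summed to between 14730 and 15170 CPM in WT and between 15600 and 18750 CPM in KO. Markers of other cells were lower: 9 T and NK cell markers summed to between 44.2 and 62.1 CPM, 7 B cell markers to between 171 and 496 CPM with the highest sum in KO replicate 1, and 8 monocyte and macrophage markers to between 152 and 589 CPM with the highest sum in KO replicate 3. The cDC2, pDC and neutrophil markers, 6 each, summed to at most 218.4, 166.3 and 8.20 CPM. In bulk samples fewer cells of a type and less RNA per cell cannot be told apart.

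The Bcl2a1 genes are shown first because their sequences set how far their counts can be separated. Bcl2a1d, Bcl2a1a and Bcl2a1b lie on chromosome 9 of mm10 at chr9:88723285-88731914 (minus strand), chr9:88956900-88962419 (plus strand) and chr9:89199209-89207827 (plus strand), and each has 2 exons and a coding sequence of 519 bases. Between any pair of the 3 genes 6 to 11 of these bases differed, an identity of 97.9% to 98.8%, and 12 positions differed among the 3 together. The first 150 coding bases, the length of one sequenced read, hold 7 of those 12 positions, which are set in capitals in the GENCODE M21 transcript sequences below. The stretch lies in the first exon at chr9:88957051-88957200 for Bcl2a1a, chr9:89199360-89199509 for Bcl2a1b and chr9:88731570-88731719 for Bcl2a1d.
Bcl2a1a: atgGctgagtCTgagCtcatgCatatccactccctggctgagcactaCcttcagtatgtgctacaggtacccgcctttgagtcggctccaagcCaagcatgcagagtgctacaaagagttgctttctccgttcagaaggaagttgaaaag
Bcl2a1b: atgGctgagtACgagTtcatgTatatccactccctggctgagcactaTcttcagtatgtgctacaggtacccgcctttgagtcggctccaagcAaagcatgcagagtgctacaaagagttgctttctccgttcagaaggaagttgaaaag
Bcl2a1d: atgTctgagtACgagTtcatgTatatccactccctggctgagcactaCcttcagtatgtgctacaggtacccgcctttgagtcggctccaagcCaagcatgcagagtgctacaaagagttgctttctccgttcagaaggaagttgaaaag
Over the whole transcripts, 85.8% of the 150-base windows of Bcl2a1b occurred in no other Bcl2a1 gene, against 71.8% for Bcl2a1a and 69.8% for Bcl2a1d. Taken alone, a read from the remaining windows matches more than 1 gene equally well. The libraries were read in pairs and a window covers 1 read only, so the other read of a pair could still place it. The handling of reads that match several genes (not given in the sources used here) could split or drop them, so the counts of each paralog are uncertain. Bcl2a1b also shares 49.1% of its exon bases with a same-strand read-through gene of that annotation, Gm29094, which has no row in the count table.

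The summed level of the 5 anti-apoptotic members was made up mostly of Bcl2a1 and Mcl1 transcripts, in WT and KO alike. Levels of different members are compared here per exon length, as TPM. In TPM, counts are divided by the union exon length of the gene and scaled to a common sum. The marker sums and the shares within Bcl2a1 are in CPM and take no account of exon length. Bcl2a1b was at 1459 ± 169 TPM (mean ± SD over all 6 libraries), Mcl1 at 1156.5 ± 51.1 TPM and Bcl2a1d at 1067.5 ± 157 TPM. Bcl2a1b exceeded Mcl1 in 6 of 6 libraries although their ranges overlapped, and Mcl1 exceeded Bcl2a1d in 4 of 6, so that this neighbouring pair did not differ beyond its spread. Bax at 166 ± 16.1 TPM, Bcl2l1 at 159 ± 27.0 TPM and Bak1 at 156 ± 26.1 TPM followed at levels that could not be ordered, each exceeding the next in 3 of 6 libraries. Below them came Bbc3 at 57.8 ± 11.9 TPM, Bcl2l11 at 36.1 ± 7.47 TPM and Bid at 20.9 ± 3.999 TPM, where Bbc3 exceeded Bcl2l11 in 5 of 6 libraries with overlapping ranges. Bcl2, the founding gene of the family, was at 0.740 ± 0.347 TPM and below every other member in all 6 libraries. Of the summed anti-apoptotic TPM, Bcl2a1b held 36.1% to 39.9%, Mcl1 27.2% to 34.5%, Bcl2a1d 25.4% to 29.5%, Bcl2l1 3.37% to 5.07% and Bcl2 at most 0.036%.

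**Figure D1:**
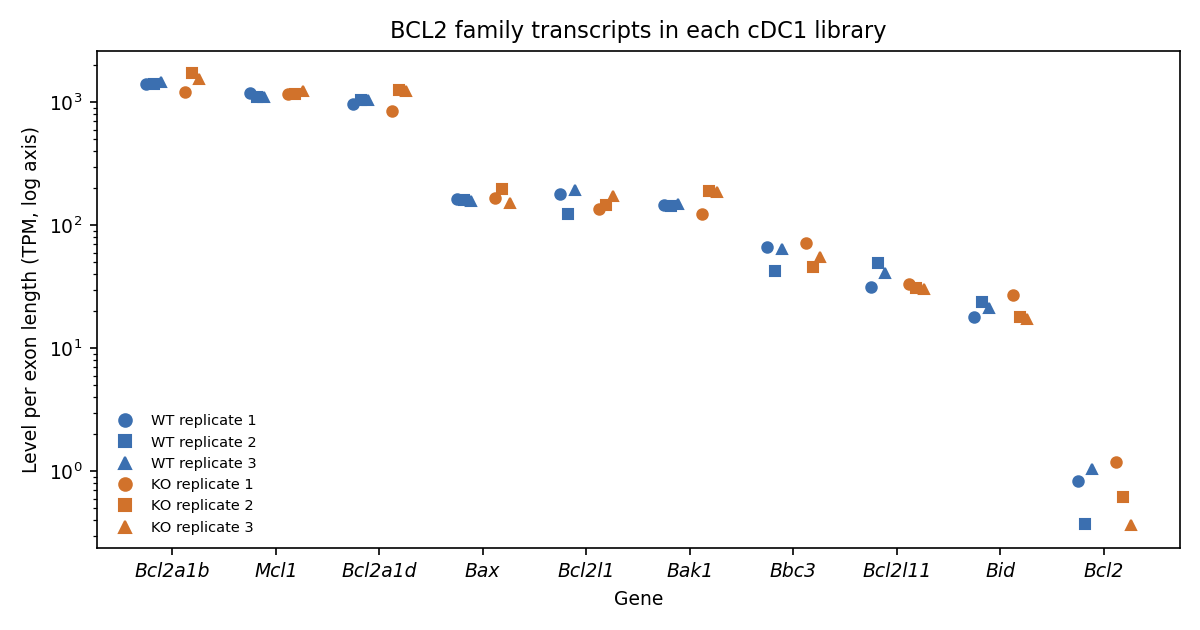
Level of each gene per exon length (TPM, log axis) in each of the 6 libraries, ordered by the mean; blue symbols are WT, orange symbols KO, and the symbol shape is the replicate number. Bcl2a1b, Mcl1 and Bcl2a1d lie at 854 TPM or more in every library, whereas Bcl2 lies between 0.365 and 1.20 TPM.

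The comparison of KO with WT sets the deletion against the levels of the survival genes, and no member passed the test. By the edgeR quasi-likelihood test with Benjamini-Hochberg adjustment over the 12568 genes tested, 0 of 10 members had an adjusted p under 0.05, against 0% of all genes. At an unadjusted p under 0.05 there were also 0 of 10 members, against 5.77% of all genes (3.06% lower and 2.71% higher in KO), and DESeq2 and limma-voom likewise called 0 members, adjusted or not. The CPM values of the groups overlapped for all 10 members, whereas 10.6% of all genes had groups that did not overlap (5.19% lower and 5.46% higher in KO). Of the members 8 lay above 0 and 2 below, with a median log2 fold change of 0.11, beside 6360 of 12568 genes above 0 and a median of 0.0043 over all genes tested.

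Among anti-apoptotic members the most precisely measured gene was Mcl1, which encodes a short-lived protein that restrains BAK and binds BIM, PUMA and NOXA. Mcl1 (chr3:95658788-95663176, plus strand) was at 1148, 1179 and 1058 CPM in the WT libraries and at 1149, 1276 and 1323 CPM in the KO libraries. The KO libraries 2 and 3 were above every WT library and KO replicate 1 lay among them. The group means were 1128 ± 62.8 CPM and 1249 ± 90.0 CPM (SD, n = 3 each), a log2 fold change of 0.15 ± 0.12 (SE) with an edgeR adjusted p of 0.884. Its 95% interval ran from 0.924-fold to 1.33-fold. The summed markers of mature migratory dendritic cells had the same order among KO libraries, at 15600, 17150 and 18750 CPM. Of the largest terms, Fscn1 had that order (5368, 6223 and 7495 CPM) and Ccr7 did not (5131, 5469 and 5354 CPM). The part of these markers in the Mcl1 values was not tested.

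Bcl2a1b and Bcl2a1d showed a wider spread among the KO libraries than among the WT libraries. Bcl2a1b was at 323, 360 and 337 CPM in WT and at 287, 448 and 403 CPM in KO. Bcl2a1d was at 233, 285 and 255 CPM in WT and at 214, 349 and 335 CPM in KO. For both genes KO replicate 1 was the lowest of the 6 libraries and KO replicates 2 and 3 were the highest. The log2 fold changes were 0.16 ± 0.16 for Bcl2a1b (95% interval -0.19 to 0.51, edgeR adjusted p = 0.909) and 0.22 ± 0.18 for Bcl2a1d (-0.18 to 0.61, adjusted p = 0.886). Bcl2a1a, which is not among the 10 but shares their sequence, had a WT mean of 220 ± 26.3 CPM and a KO mean of 241 ± 65.6 CPM (SD, n = 3 each), with the same order of KO libraries. Bcl2a1c, on the same chromosome and with a coding sequence of 387 bases, had 3 to 14 counts per library.

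Summing the paralogs removes the question of which gene a counted shared read belongs to. Any shared reads that were dropped would be missing from the sum as well. The 4 genes together were at 752, 893 and 808 CPM in WT and at 667, 1088 and 1003 CPM in KO. The fitted log2 fold change was 0.16 ± 0.17 (95% interval -0.22 to 0.54, edgeR adjusted p = 0.919). The division of the sum among paralogs was nearly fixed: Bcl2a1b held 40.1% to 43.1%, Bcl2a1d 31.0% to 33.4% and Bcl2a1a 24.9% to 27.7% across all 6 libraries. Of the windows particular to 1 of these 3 genes, Bcl2a1b holds 36.9%, Bcl2a1d 32.1% and Bcl2a1a 31.0%. The wider spread among KO libraries was thus measured for the sum as for each paralog.

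**Figure D2:**
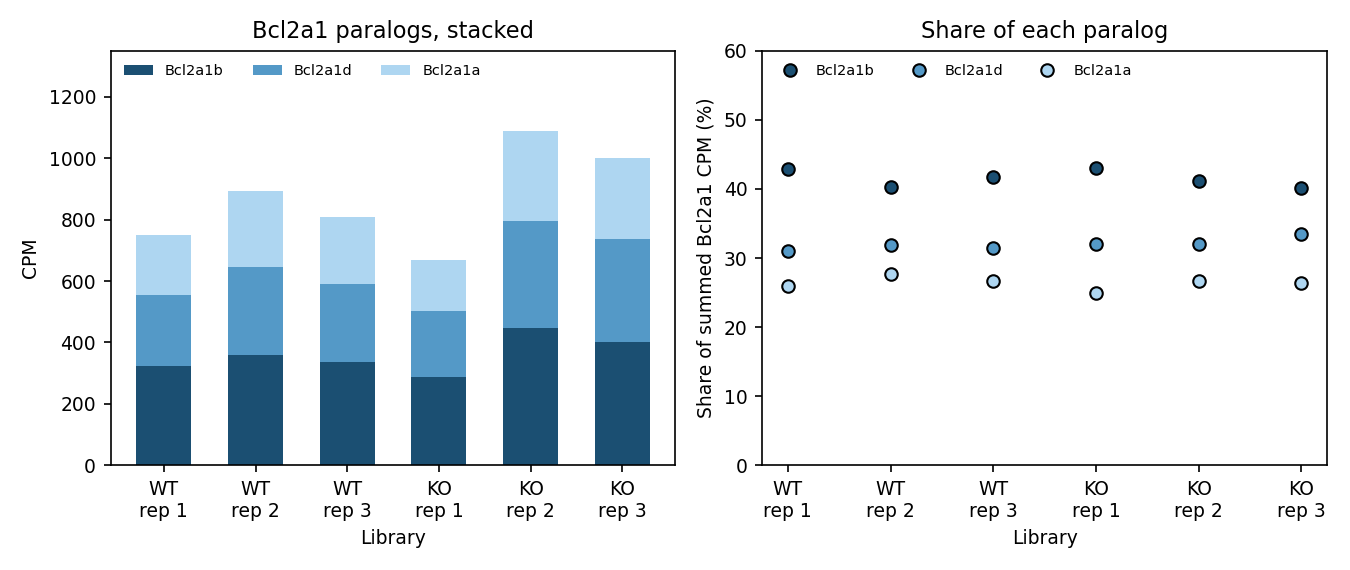
Left, CPM of Bcl2a1b, Bcl2a1d and Bcl2a1a stacked for each library; right, the share of each in the summed Bcl2a1 CPM (percent). The sum is lowest in KO replicate 1 at 667 CPM and highest in KO replicate 2 at 1088 CPM, while the shares stay within 40.1% to 43.1% for Bcl2a1b.

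Fold changes over all genes differed with exon length, and several members are short. The exons of Bcl2a1b and Bcl2a1d span 817 and 863 bases, among the shortest 3141 tested genes (up to 2667 bases), whose median log2 fold change was 0.10, against -0.07 for the longest 3140 (from 6661 bases). In the libraries the median of the shortest genes, as log2 CPM relative to the mean of all 6, was -0.10, 0.07 and -0.09 in WT and -0.04, 0.14 and 0.05 in KO. KO replicate 2 was highest in this median, and KO replicate 1 lay above WT replicates 1 and 3. Bcl2a1b and Bcl2a1d were highest in KO replicate 2 and lowest in KO replicate 1. With an offset for length in each library, an alternative chosen after the data were examined, the log2 fold change was 0.01 ± 0.13 for Bcl2a1b and 0.08 ± 0.14 for Bcl2a1d. Mcl1, with 3418 exon bases, was at 0.13 ± 0.11 with that offset. Of the other short members, Bax (1576 exon bases) was at 0.09 ± 0.13 with it against 0.18 without, Bbc3 (2124 bases) at 0.0123 ± 0.21 against 0.07, and Bak1 (2407 bases) at 0.22 ± 0.17 against 0.28. Of the longest members, Bcl2l11 (8029 bases) was at -0.24 ± 0.20 against -0.30, and Bcl2 (9157 bases) at 0.09 ± 0.54 against 0.01. Neither why fold changes differed with length nor the part of length in the members' values was tested.

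Bcl2l1 (chr2:152780668-152831728, minus strand), which encodes the mitochondrial guardian BCL-XL, was at 233, 178 and 249 CPM in WT and at 182, 216 and 250 CPM in KO. The lowest and the highest library differed by about as much within each group, and the groups overlapped throughout. The log2 fold change was -0.03 ± 0.16, with an edgeR adjusted p of 0.986 and a 95% interval from 0.766-fold to 1.25-fold. Bcl2 (chr1:106538178-106714274, minus strand), which is prominent in resting lymphocytes, had 39, 16 and 51 counts in the WT libraries and 44, 31 and 12 counts in the KO libraries. These are 2.14, 1.08 and 2.70 CPM in WT and 3.19, 1.81 and 1.06 CPM in KO. Exact 95% Poisson intervals, which cover counting error only, ran from 0.547 to 1.85 CPM in the lowest library, KO replicate 3, and from 2.32 to 4.28 CPM in the highest, KO replicate 1. At this depth the log2 fold change of 0.01 ± 0.55 left an interval from 0.437-fold to 2.33-fold. KO replicate 1 also had the highest sum of B cell markers, of which Ighm made up 390 CPM while Ms4a1 was at 3.77 CPM, and a part of these cells in the Bcl2 counts was not tested.

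Of the effector genes, Bak1 had the highest point estimate of the 10 members. Bak1 (chr17:27019810-27029009, minus strand) encodes the effector that resides on mitochondria and was at 98.6, 108 and 102 CPM in WT and at 86.4, 147 and 141 CPM in KO. KO replicates 2 and 3 were above every WT library and KO replicate 1 below every WT library. The log2 fold change of 0.28 ± 0.18 had a 95% interval from -0.13 to 0.68 and an edgeR adjusted p of 0.854. Of the exon bases of Bak1, 18.2% also lie in exons of Ggnbp1 on the opposite strand, and without the strand setting of the counting (not given in the sources used here) their reads cannot be told apart. Bax (chr7:45461697-45466898, minus strand), whose protein moves from the cytosol to mitochondria, was at 72.7, 79.2 and 70.6 CPM in WT and at 75.5, 99.3 and 75.5 CPM in KO. KO replicate 2 stood above the rest, and the other KO libraries lay within the WT range. Its log2 fold change was 0.18 ± 0.15 with an edgeR adjusted p of 0.887, and 0.01 without KO replicate 2. Exons of Bax share 12.2% of their bases with the same-strand gene Gm45808, which has no row in the count table.

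Bcl2l11 lay furthest from 0 of the 10 members when all 6 libraries were fitted, with a lower mean in KO, and it did not pass either. Bcl2l11 (chr2:128126038-128162547, plus strand) encodes BIM, the BH3-only protein that binds every anti-apoptotic member. It was at 71.3, 123 and 93.6 CPM in the WT libraries and at 77.1, 79.7 and 77.3 CPM in the KO libraries. The KO libraries lay within 77.1 to 79.7 CPM, above WT replicate 1 and below the other WT libraries. The group means were 96.1 ± 26.2 CPM and 78.0 ± 1.45 CPM (SD, n = 3 each), and the log2 fold change of -0.30 ± 0.18 had a 95% interval from 0.616-fold to 1.08-fold and an edgeR adjusted p of 0.854. WT replicate 2 set much of this difference, since the log2 fold change was -0.09 without it. Leaving out WT replicate 1, the lowest library for Bcl2l11, necessarily makes the fold change more negative. It was then -0.47 ± 0.17 with an unadjusted edgeR p of 0.0182 and an adjusted p of 0.998. In that fit 4.53% of all genes had an unadjusted p under 0.05 (2.42% lower and 2.11% higher in KO). WT replicate 2 was also the library with the most Xcr1, the chemokine receptor gene of cDC1s, at 44.6 CPM against 5.72 to 13.5 CPM in the others, and the part of this in the Bcl2l11 values was not tested.

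The other BH3-only members lay close to 0. Bid (chr6:120891930-120916853, minus strand) encodes the protein that caspase-8 cleaves to link death receptors to mitochondria, and was at 17.97, 26.4 and 21.5 CPM in WT and at 28.0, 20.2 and 19.3 CPM in KO. Its log2 fold change was 0.05 ± 0.22, with an edgeR adjusted p of 0.986. Of the exon bases of Bid, 17.7% also lie in exons of the family member Bcl2l13 on the opposite strand, so its counts are uncertain. KO replicate 1 was the highest library for Bid as for Bbc3. Bbc3 (chr7:16308393-16318205, plus strand) encodes PUMA, a target of p53, and was at 39.5, 28.2 and 38.8 CPM in WT and at 44.5, 31.2 and 37.1 CPM in KO. The log2 fold change was 0.07 ± 0.19 with an edgeR adjusted p of 0.969, and the groups overlapped for both genes.

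**Figure D3:**
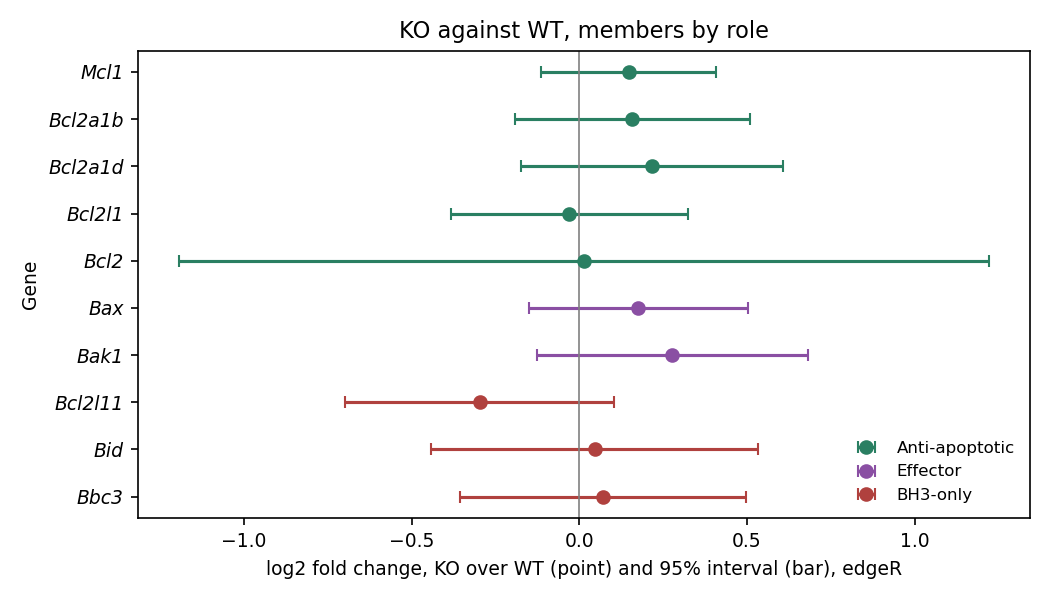
Log2 fold change of KO over WT for each member (points) with its 95% interval from the edgeR quasi-likelihood fit (bars), coloured by role; n = 3 libraries per group. Every interval includes 0, and the widest is that of Bcl2, from -1.19 to 1.22.

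Set against each other, anti-apoptotic and pro-apoptotic transcripts stood in nearly the same mean proportion in both groups. The 5 anti-apoptotic genes summed to 3736, 3674 and 3799 TPM in the WT libraries and to 3365, 4300 and 4181 TPM in the KO libraries. The 5 pro-apoptotic genes summed to 425, 418 and 436 TPM in WT and to 422, 484 and 439 TPM in KO. Within each library the log2 ratio was 3.14, 3.14 and 3.12 in WT and 3.00, 3.15 and 3.25 in KO. The mean log2 ratio was 3.13 ± 0.008 in WT and 3.13 ± 0.13 in KO (SD, n = 3 each), an 8.76-fold and an 8.78-fold excess. This ratio over the members is a description and was given no test. Both sums hold only members. Pmaip1, a BH3-only gene outside the 10, was at 1120 ± 42.9 TPM in WT and 982 ± 99.1 TPM in KO, above the pro-apoptotic sum in both groups. On the anti-apoptotic side Bcl2a1a, also outside the 10, was at 914 ± 59.0 TPM in WT and 945 ± 216 TPM in KO.

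The ratio to the BH3-only genes alone was more variable. Anti-apoptotic over BH3-only levels had a log2 ratio of 5.01, 4.999 and 4.90 in WT and 4.67, 5.50 and 5.35 in KO, with KO replicate 1 lowest and KO replicates 2 and 3 highest. Against Bax and Bak1 the log2 ratio was 3.61 ± 0.01 in WT and 3.55 ± 0.09 in KO. For Mcl1 over Bcl2l11 it was 5.24, 4.49 and 4.73 in WT and 5.13, 5.23 and 5.33 in KO, where WT replicate 1 lay among the KO libraries. Without Bcl2a1b and Bcl2a1d the ratio over all remaining members was 1.60 ± 0.08 in WT and 1.58 ± 0.12 in KO.

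**Figure D4:**
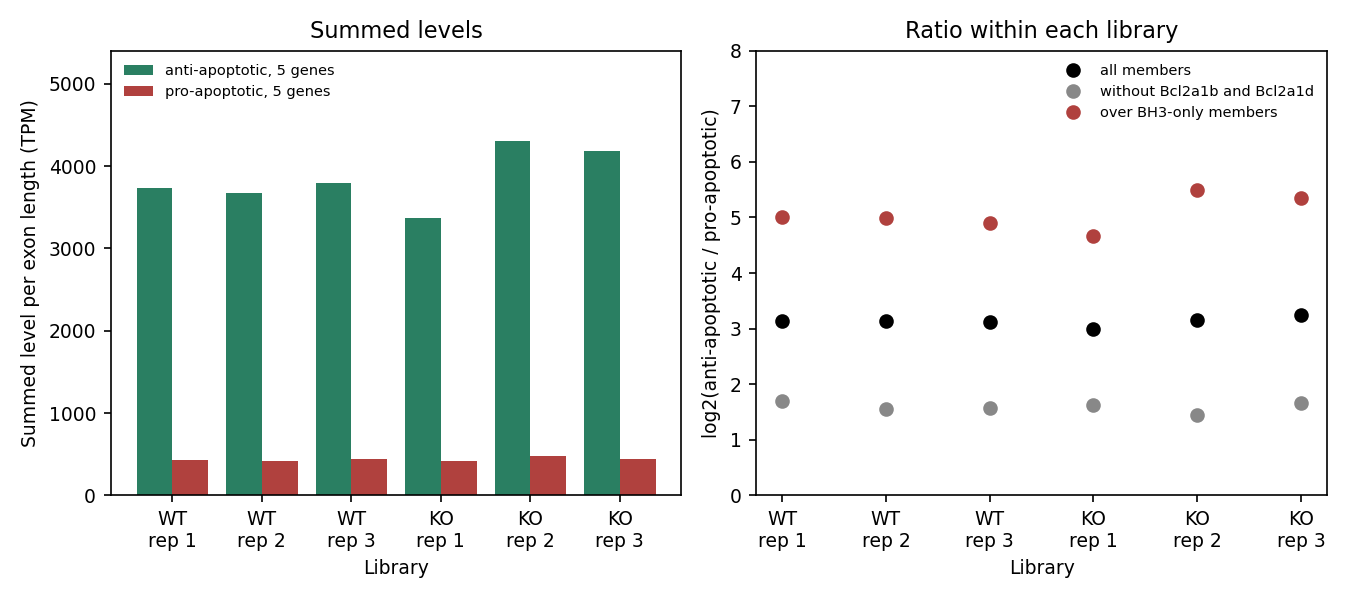
Left, summed level per exon length (TPM) of the 5 anti-apoptotic and the 5 pro-apoptotic genes in each library; right, the log2 ratio of anti-apoptotic to pro-apoptotic levels with all members, without Bcl2a1b and Bcl2a1d, and over BH3-only members. The ratio with all members lies between 3.00 and 3.25 in all 6 libraries.

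KO replicate 1 differed from KO replicates 2 and 3 across several members. It was the lowest of all 6 libraries for Bcl2a1b, Bcl2a1d and Bak1 and the highest for Bid, Bbc3 and Bcl2. How often this library was the lowest or highest over all genes was not counted, so these places are a description only. KO replicate 2 was the highest library for Bcl2a1b, Bcl2a1d, Bax and Bak1. The SD of log2 CPM was larger in KO than in WT for 7 of 10 members (70%), beside 55.1% of all genes tested. Without KO replicate 1, Bak1 (0.48 ± 0.12), Bcl2a1d (0.41 ± 0.12) and Bcl2a1b (0.32 ± 0.11) had an unadjusted edgeR p under 0.05, or 3 of 10 members, where 12.3% of all genes had one (6.49% higher and 5.81% lower in KO). Their edgeR adjusted p-values were 0.189, 0.25 and 0.302 without that library. Because that library was the lowest of the 6 for these genes, leaving it out necessarily raises their fold changes. Bcl2a1b and Bcl2a1d also share sequence and cannot be counted as separate genes here. Without KO replicate 2 the log2 fold changes of the same genes were 0.12 ± 0.20 for Bak1, 0.07 ± 0.20 for Bcl2a1d and 0.0059 ± 0.17 for Bcl2a1b, and without KO replicate 3 they were 0.18, 0.12 and 0.11. Monocyte and macrophage markers summed to 170 CPM in KO replicate 1, 152 CPM in KO replicate 2 and 589 CPM in KO replicate 3. KO replicate 1 had the highest B cell marker sum, at 496 CPM, and of the KO libraries the lowest sum of mature migratory dendritic cell markers, at 15600 CPM. The part of these markers in the members' values was not tested.

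Among other genes of the family, 0 of 13 tested genes passed in any of the 3 tools, and 0 had an unadjusted p under 0.05 in any of them. Of 17 listed genes, Bcl2l10 and Hrk had no counts, and Bok and Bcl2l15 were too low to test. The median log2 fold change was 0.13, with 9 of 13 above 0. Pmaip1, which encodes the MCL1-binding BH3-only protein NOXA, had a higher level per length than Bmf, Bcl2l11, Bid or Bbc3, with 832, 955 and 899 CPM in WT and 853, 861 and 760 CPM in KO. The groups overlapped, and its log2 fold change was -0.12 ± 0.12. Bmf, whose BH3-only protein is tethered to the actin-myosin cytoskeleton in resting cells, was at 126, 124 and 131 CPM in WT and at 115, 118 and 101 CPM in KO. The Bmf groups did not overlap, with a log2 fold change of -0.19 ± 0.12 and an edgeR adjusted p of 0.854, and 5.19% of all genes were likewise lower without overlap. Bcl2l14, a divergent member of the family, had a log2 fold change of 0.11 ± 0.15 and levels of 424 ± 41.1 TPM in WT and 433 ± 49.3 TPM in KO (SD, n = 3 each). Bcl2l12 (0.81 ± 0.44) and Bcl2l13 (0.20 ± 0.14) had the other small p-values, with edgeR adjusted p of 0.834 and 0.861, and 28.9% of the exon bases of Bcl2l12 also lie in Gm15545 on the opposite strand. The BCL-W gene Bcl2l2 had 29 counts in WT replicate 3 against 148 to 222 in the other libraries.

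Downstream of the mitochondria, the list of apoptosome genes, caspases and inhibitors of apoptosis had 18 tested genes, 10 above 0 and 8 below, with a median of 0.05. None passed in edgeR, DESeq2 or limma-voom (0 of 18), and 1 gene had an unadjusted p under 0.05 in each, a share near the 5.77% of all genes in edgeR. In edgeR this was Birc6, a giant ubiquitin ligase that restrains caspases, at 137, 104 and 119 CPM in WT and 98.6, 81.8 and 104 CPM in KO (log2 fold change -0.35 ± 0.15, edgeR adjusted p = 0.834). The log2 fold change of the initiator caspase gene Casp9 was 0.44 ± 0.21, and that of Birc2, which encodes cIAP1, was -0.23 ± 0.14.

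The death receptor list, whose pathway feeds BID, had 12 tested genes with a median of 0.06, and 0 passed in the 3 tools. Fadd, the adaptor that recruits caspase-8, had the smallest p in edgeR and was the 1 of 12 genes with an unadjusted p under 0.05 there, beside 5.77% of all genes (2.71% higher in KO). It was at 16.1, 10.2 and 17.05 CPM in WT and at 22.6, 23.8 and 18.3 CPM in KO. The log2 fold change was 0.57 ± 0.24 with an edgeR adjusted p of 0.834. Tnfrsf1a, the TNF receptor gene, had a log2 fold change of -0.35 ± 0.18, and Cflar, which encodes the caspase-8 inhibitor c-FLIP, one of 0.14 ± 0.11. The groups did not overlap for these 3 of 12 genes, beside 10.6% of all genes, and 1 of them lay lower in KO.

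Regulators of the family, a list of 24 genes with 23 tested, had a median of 0.03 with 12 above 0 and 11 below. In edgeR 0 passed and 0 had an unadjusted p under 0.05, while DESeq2 and limma-voom each had 1 at an unadjusted p and 0 after adjustment. Usp9x, a deubiquitinase that stabilises MCL1, was at 133, 130 and 128 CPM in WT and at 126, 90.3 and 99.1 CPM in KO (log2 fold change -0.31 ± 0.14, edgeR adjusted p = 0.834). Dynll1, a dynein light chain gene whose product binds BIM, had a log2 fold change of 0.35 ± 0.18, and Vdac2, which encodes a mitochondrial channel that binds BAK, one of 0.25 ± 0.13. The groups did not overlap for Usp9x, Btrc and Vdac1, or 3 of 23 genes, beside 10.6% of all genes, where Btrc and Vdac1 are named after their values were seen.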

How the data were processed

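RNA of sorted cDC1s was read in pairs of 150 bases, per the labels' protocols. The authors deposited raw counts per Ensembl gene, not normalized. HISAT2 2.0.5, HTSeq and mm10 are named in the submitters' processing notes, without the HTSeq version, annotation, strand setting or treatment of multi-mapped reads (not given in the sources used here). Each column name was the description of 1 sample plus a lane suffix. GENCODE M21 named 32235 features.

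The filter filterByExpr left 12568 genes. After TMM scaling these were tested by edgeR 4.0.16 in R 4.3.3 (glmQLFit with robust = TRUE and legacy = FALSE, glmQLFTest), KO against WT, and p-values were adjusted by Benjamini-Hochberg (calls at 0.05). The SE is the size of the log2 fold change over the square root of F, and intervals are 95%. The test was checked on simulated counts. Levels per length used union exon lengths. Alternatives included DESeq2 1.42.0, limma 3.58.1, other scalings and filters, each library left out, and, chosen after seeing the data, a length offset and the legacy fit.

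The members and lists were chosen with earlier results of these data known. All 10 members were described. In the wider BCL2 family list any gene with counts could be named, and in each other list the 3 with the smallest p, and Btrc and Vdac1 were added afterwards. Where a symbol had several features, the one with the most counts was used.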

Additional observations from a re-analysis of the deposited data

How the results depend on the processing

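Of 170 recomputed member values under 17 alternatives, 160 kept their direction and 10 reversed, and none passed (smallest adjusted p 0.189). The reversed log2 fold changes were Bcl2 with limma-voom (-0.0295), without WT replicate 2 (-0.24) and without KO replicate 1 (-0.43), Bcl2l1 without WT replicate 1 (0.0115), WT replicate 3 (0.068) or KO replicate 1 (0.0767), Bid without WT replicate 1 (-0.0826) or KO replicate 1 (-0.139), and Bbc3 without WT replicate 2 (-0.0708) or KO replicate 1 (-0.0753). With 1 library left out these 4 genes ran from -0.43 to 0.305 (Bcl2), -0.167 to 0.0767 (Bcl2l1), -0.139 to 0.185 (Bid) and -0.0753 to 0.186 (Bbc3). The cause was not tested. Over all genes, the adjusted calls numbered 0 in the main test, 3 without a filter, 7 with DESeq2 and 0 to 7 with 1 library left out, the most without KO replicate 1. Genes at an unadjusted p under 0.05 numbered 725, and 376 to 1621 with 1 library left out: the libraries behind 376, 444 and 1621 were KO replicates 2, 3 and 1. Same-numbered libraries deviated from their group means with correlations of 0.026, 0.069 and 0.026 over genes. KO replicates 1 and 2 correlated best with their own number, and KO replicate 3 with WT replicate 1 (0.051). The labels do not say that the numbers pair the samples and these correlations are small, so the numbers were not taken as pairs. With the replicate number as a block 942 genes had an unadjusted p under 0.05 and 0 passed, and no member's call differed. The anti-apoptotic to pro-apoptotic log2 ratio in KO minus WT was 0.0019, and -0.0573 to 0.0703 with 1 library left out. Bcl2, at 12 to 51 counts a library, was the member most limited by depth.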
